A study of Mus musculus with 12 samples.

Results

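The transcripts of Gata1, Pf4, Selp and Cd36, 4 genes of the megakaryocyte and platelet lineage, were followed through cells sorted as haematopoietic stem cells (HSCs) from mouse femur marrow. They were picked by symbol from a table of 754 genes, not by their values, and all 4 symbols were found once. The study compared wild-type C57/BL6 mice with mice that lack the beta-3 adrenergic receptor (Adrb3-/-), each after sham surgery or after ICH, an abbreviation that the labels do not spell out. All animals were male, the marrow was taken on day 3 after surgery, and the cells were sorted straight into Trizol LS, from which total RNA was extracted. Each of the 4 groups, a genotype with a surgery, holds 3 libraries, and the 12 libraries came from 6 mice of each genotype, so that each was taken as 1 mouse. The sources used here do not give how Adrb3 was inactivated, the age of the mice, the littermate status of the controls or the sort gate. Transcripts of Adrb3 were not analysed here, which leaves the genotype without a check on its own gene.

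Megakaryocytes are the large polyploid marrow cells that shed platelets, and they descend from stem cells through progenitors shared with red cells. Gata1 is a zinc-finger transcription factor that drives megakaryocyte and red cell maturation and is also used by eosinophils and mast cells. Pf4 (platelet factor 4, also Cxcl4) is a chemokine stored in the alpha granules of megakaryocytes and platelets, and secreted Pf4 is known in mice to hold stem cells in quiescence. Selp (P-selectin) is an adhesion receptor of the alpha granule membrane that moves to the surface of an activated platelet and binds leukocytes. Endothelial cells make Selp as well. Cd36 is a receptor for thrombospondin, oxidised lipoproteins and long-chain fatty acids, carried by platelets, macrophages, fat cells and some endothelial cells.

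The deposited values are counts multiplied by 1 factor per library, and a gene with under 20 counts is listed at 20. In 11 libraries the total ran from 110740 to 556407 counts. Wild-type sham replicate 1 stands apart with 24775 counts and 79 counts for its strongest positive control, against 6278 to 44207 in the others. In it, 1 count was worth a value of 15.5, so it was left out of the main fit and is shown apart. Among the rest, 2 of the 3 Adrb3-/- ICH libraries were weak. Replicate 1 had the lowest positive control of the 11 and 104 genes under 20 counts, and replicate 2 had the lowest total and 243 such genes, with 20 counts worth 103. Replicate 3 of that group, not counted as weak here, had the next lowest total (245553 counts). It had 61 such genes, more than any of the 11 libraries outside that group. Adrb3-/- sham replicate 3 differed in makeup, with 23.2% of its counts in the neutrophil genes S100a8 and S100a9 against 43.9% to 55.3% in the other 10.

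The lineage label could be checked only in part. Of 9 megakaryocyte markers 3 were measured (Gata1, Pf4 and Selp), and Itga2b, Gp1ba, Gp9, Ppbp and Vwf were among those not analysed here. Of 7 platelet markers 4 were measured (Pf4, Selp, Cd36 and Clec1b). Gata1, Selp and Cd36 also have sources outside the lineage, so their transcripts do not by themselves mark megakaryocytes in these sorts. Markers of the sorted type were measured too: the stem and progenitor genes Flt3, Cd34 and Gata2 had 20 or more counts in all 11 libraries, and Kit was under 20 counts in 1. Neutrophil genes were high in the same libraries, as the share of S100a8 and S100a9 shows.

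All 4 genes had 20 or more counts in all 11 libraries and passed the filter on low values, a mean above the background of the negative control probes (mean plus 2 SD, 52.2 as a mean over the 11). Library by library, Gata1, Pf4 and Cd36 were above their own background in 11 of 11 and Selp in 10 of 11. The margin was smallest in the Adrb3-/- ICH group. There, Cd36 counts were 1.38 to 1.89 times the background, and in the 2 weak libraries Gata1 and Pf4 counts were 1.70 to 1.82 times the background. In the other 9 libraries the 4 genes reached up to 12.1 times the background.

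**Figure D1:**
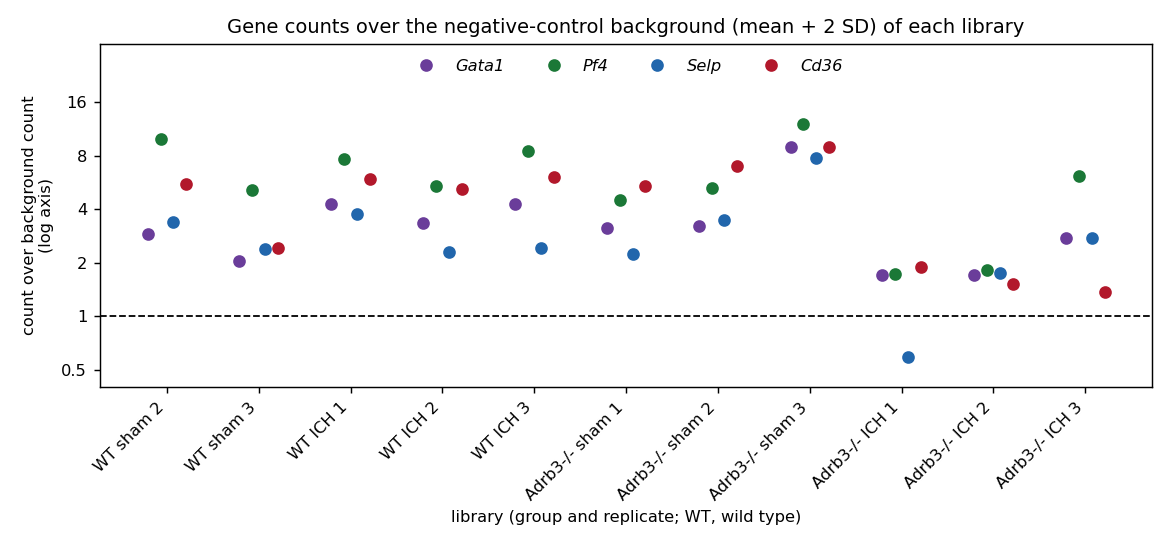
Counts of Gata1, Pf4, Selp and Cd36 in each of 11 libraries, divided by the library's own negative-control background (mean plus 2 SD, log axis). The dashed line is the background. Selp in Adrb3-/- ICH replicate 1 is the 1 point below it, and the nearest point above it is Cd36 in Adrb3-/- ICH replicate 3 at 1.38 times.

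None of the 4 genes passed the test in any comparison between groups. The test was limma on log2(value + 1), with p-values adjusted by Benjamini-Hochberg over the 674 genes that passed the filter and a threshold of 0.05. The count was 0 of 4 for ICH against sham in wild type, where 0% of all tested genes passed, and 0 genes had an unadjusted p under the same threshold. It was 0 of 4 for ICH against sham in Adrb3-/-, where 1.04% passed (7 genes, and 73 or 10.8% by unadjusted p). It was 0 of 4 for Adrb3-/- against wild type after sham (0% passed, 32 genes or 4.75% by unadjusted p) and after ICH (0% passed, 72 genes or 10.7%). It was 0 of 4 for the interaction, which asks whether the ICH difference depends on the genotype (0% passed, 29 genes or 4.30%). By unadjusted p, only Pf4 between genotypes after sham fell under the threshold in these 5 comparisons. Groups without overlap were counted as well, each beside the share of all tested genes. For ICH against sham in wild type, 1 of 4 (Gata1) was higher in every ICH library, as were 3.12% of all tested genes, and 0 of 4 lower (14.1%). In Adrb3-/- the counts were 0 of 4 higher (1.63%) and 0 of 4 lower (10.2%). Between genotypes after sham they were 0 of 4 higher in Adrb3-/- (10.4%) and 1 of 4 lower (Pf4, 16.3%), and after ICH 0 of 4 higher (4.90%) and 0 of 4 lower (8.75%). All genes tested had a median log2 difference between -0.16 and -0.06 in these comparisons, and the differences below are given before subtraction of it. In bulk RNA, fewer cells that make a transcript and less of it per cell cannot be told apart.

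**Figure D2:**
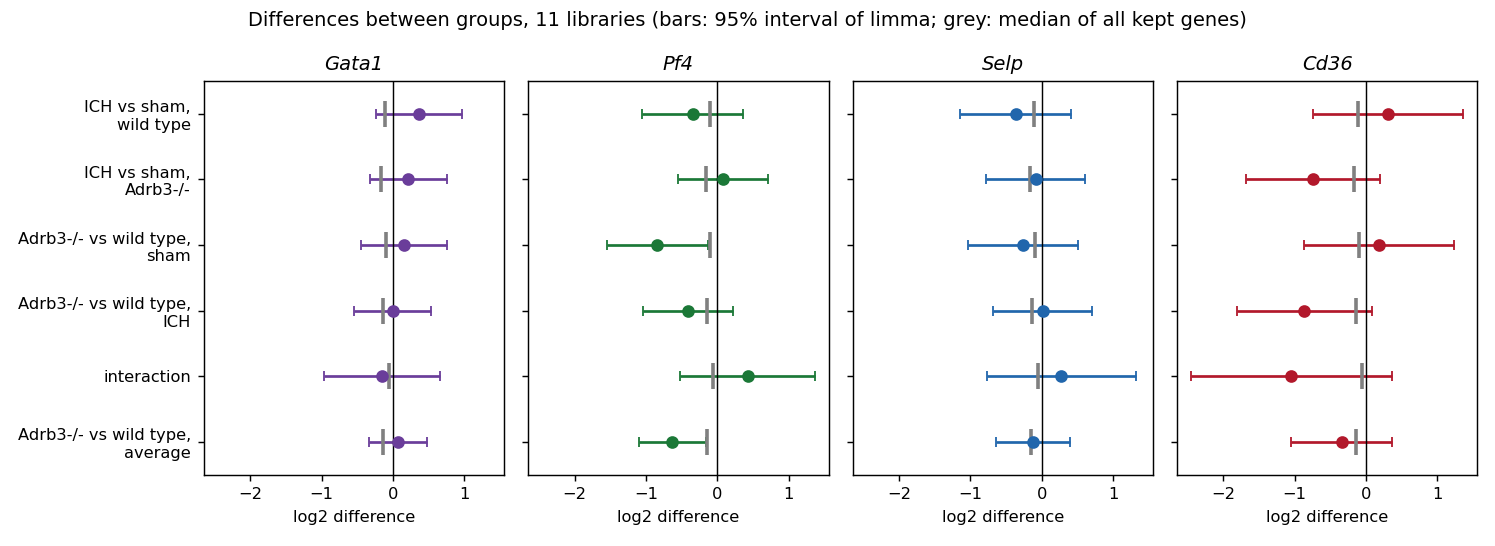
Differences on the log2(value + 1) scale for the 4 genes in 6 comparisons, each with its 95% interval from limma over 11 libraries. The grey mark is the median of all 674 tested genes. The interval of Pf4 lies below 0 between genotypes after sham and in the average over both surgeries, and all other intervals reach across 0.

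Gata1, the transcription factor of the lineage, was the steadiest of the 4 genes. Differences after ICH were less than the spread between mice allows to call. Its mean was a little higher in wild-type ICH and, through replicate 1 (a weak library), in Adrb3-/- ICH. Its values were 127 and 118 in wild-type sham, from 67 and 86 counts. They were 167, 141 and 169 in wild-type ICH (137, 122 and 104 counts), and 134, 118 and 159 in Adrb3-/- sham (90, 93 and 138 counts). In Adrb3-/- ICH they were 211, 145 and 129, from 110, 28 and 60 counts. All 3 wild-type ICH libraries lay above both wild-type sham libraries, while the Adrb3-/- groups overlapped.

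Group means of Gata1 were 122 ± 6.81 (SD, n = 2) in wild-type sham, 137 ± 20.7 (n = 3) in Adrb3-/- sham, 159 ± 15.7 (n = 3) in wild-type ICH and 162 ± 43.6 (n = 3) in Adrb3-/- ICH. The libraries of neighbours in this order overlapped. ICH stood 0.37 above sham in wild type on the log2 scale (SE 0.27, 95% interval -0.24 to 0.97, adjusted p = 0.9999 by limma). In Adrb3-/- the difference was 0.21 (SE 0.24, interval -0.33 to 0.75, adjusted p = 0.795), and 0.006 without replicate 1 of Adrb3-/- ICH. Between genotypes it was 0.15 (SE 0.27, adjusted p = 0.992) after sham and 0.00 (SE 0.24, interval -0.54 to 0.54, adjusted p = 0.997) after ICH. The interaction was -0.15 (SE 0.37, adjusted p = 0.990). Counting error alone gives a coefficient of variation of 11.6% for the wild-type sham libraries and 9.19% for wild-type ICH, where the observed values were 5.57% and 9.90%. The scatter of Gata1 between those mice was thus below or close to what its counts alone give. Eosinophils and mast cells, other users of Gata1, were followed by their own markers. Summed values of 10 eosinophil, basophil and mast cell markers were 1749 to 2792 in Adrb3-/- ICH and 3584 to 9123 in wild-type ICH, the groups with nearly equal Gata1 means. Prg2, an eosinophil granule protein, made up most of the wild-type ICH sums, and without it the 9 other markers summed to 893 to 1760 in Adrb3-/- ICH and 1363 to 2339 in wild-type ICH, which overlap.

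Pf4, the granule chemokine, was lower in the mean in Adrb3-/- than in wild-type mice after either surgery, without passing the adjusted threshold. Wild-type sham mice held 438 and 295 (231 and 216 counts), and wild-type ICH mice held 298, 227 and 335 (245, 197 and 207 counts). In Adrb3-/- sham the values were 193, 193 and 216 (130, 152 and 187 counts), and in Adrb3-/- ICH they were 213, 155 and 288 (111, 30 and 134 counts). Of the 6 Adrb3-/- libraries, 5 lay below the lowest of the 5 wild-type libraries (227). The exception was Adrb3-/- ICH replicate 3 at 288. Both weak Adrb3-/- ICH libraries are among the 5, and the share of all tested genes with such a count was not taken.

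After sham all 3 Adrb3-/- libraries lay below both wild-type libraries. Group means were 367 ± 101 (SD, n = 2) in wild-type sham, 287 ± 55.2 (n = 3) in wild-type ICH, 219 ± 66.9 (n = 3) in Adrb3-/- ICH and 201 ± 13.1 (n = 3) in Adrb3-/- sham. The libraries of neighbours in this order overlapped. Adrb3-/- stood 0.84 below wild type after sham (log2 difference -0.84, SE 0.32, 95% interval -1.55 to -0.14). Its unadjusted p in limma was 0.0238, rank 14 of the 674 genes, and the adjusted p was 0.968. Without wild-type sham replicate 2, which holds the highest Pf4 value of the 11, the difference was -0.56, and without replicate 3 it was -1.13. After ICH the genotypes differed by -0.42 (SE 0.28, interval -1.05 to 0.21, adjusted p = 0.563). That value was 0.03 with the 2 weak Adrb3-/- ICH libraries left out. Only replicate 3, the highest Pf4 value of that group, then stands for Adrb3-/- ICH.

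Taken over both surgeries, a comparison added after the values of Pf4 had been seen, its mean was 319 ± 77.5 (SD, n = 5) in wild type and 210 ± 44.2 (n = 6) in Adrb3-/-. The log2 difference averaged over surgeries was -0.63 (SE 0.21, interval -1.10 to -0.16, adjusted p = 0.604 by limma). Pf4 ranked 13 of 674 by p, and 47 genes (6.97%) had an unadjusted p under the threshold while 0% passed after adjustment. In both surgeries pooled the genotypes overlapped for all 4 genes, where 0.148% of tested genes were higher and 0.593% lower in every Adrb3-/- library. The averaged Pf4 difference was -0.49 without wild-type sham replicate 2 and -0.77 without wild-type sham replicate 3. It was -0.41 without the 2 weak Adrb3-/- ICH libraries, where replicate 3 alone stands for that group. With sham and ICH kept apart, Pf4 showed no shared response to ICH. ICH stood 0.34 below sham in wild type (difference -0.34, SE 0.32, adjusted p = 0.9999) and 0.08 above it in Adrb3-/- (SE 0.28, adjusted p = 0.946). The wild-type value was -0.06 without sham replicate 2. The interaction was 0.42 (SE 0.43, interval -0.52 to 1.37, adjusted p = 0.907).

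Because the factor of a library cancels in the ratio of 2 of its genes, the Pf4 counts were also set against those of the other 3 genes in the same library. The log2 ratio to Gata1 was 1.33 and 1.79 in wild-type sham, 0.69 to 0.99 in wild-type ICH, 0.44 to 0.71 in Adrb3-/- sham and 0.01 to 1.16 in Adrb3-/- ICH. The wild-type sham libraries had the highest ratios of the 11, and Gata1, the denominator, had its lowest mean there. The ratios to the other genes did not share that order. Over Selp, the log2 ratio was 1.097 and 1.57 in wild-type sham, 1.02 to 1.81 in wild-type ICH, 0.59 to 1.02 in Adrb3-/- sham and 0.05 to 1.55 in Adrb3-/- ICH. Over Cd36, it was 0.85 and 1.07 in wild-type sham, 0.07 to 0.49 in wild-type ICH, -0.40 to 0.44 in Adrb3-/- sham and -0.14 to 2.16 in Adrb3-/- ICH. In all 3 ratios both wild-type sham libraries were above the 3 Adrb3-/- sham libraries. How many other gene pairs part these libraries in this way was not counted. All 3 ratios share Pf4, whose own values after sham did not overlap, so they are not 3 separate results. Counts of different probes do not compare as levels, so only the order of the groups can be read from these ratios, and they were given no test.

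**Figure D3:**
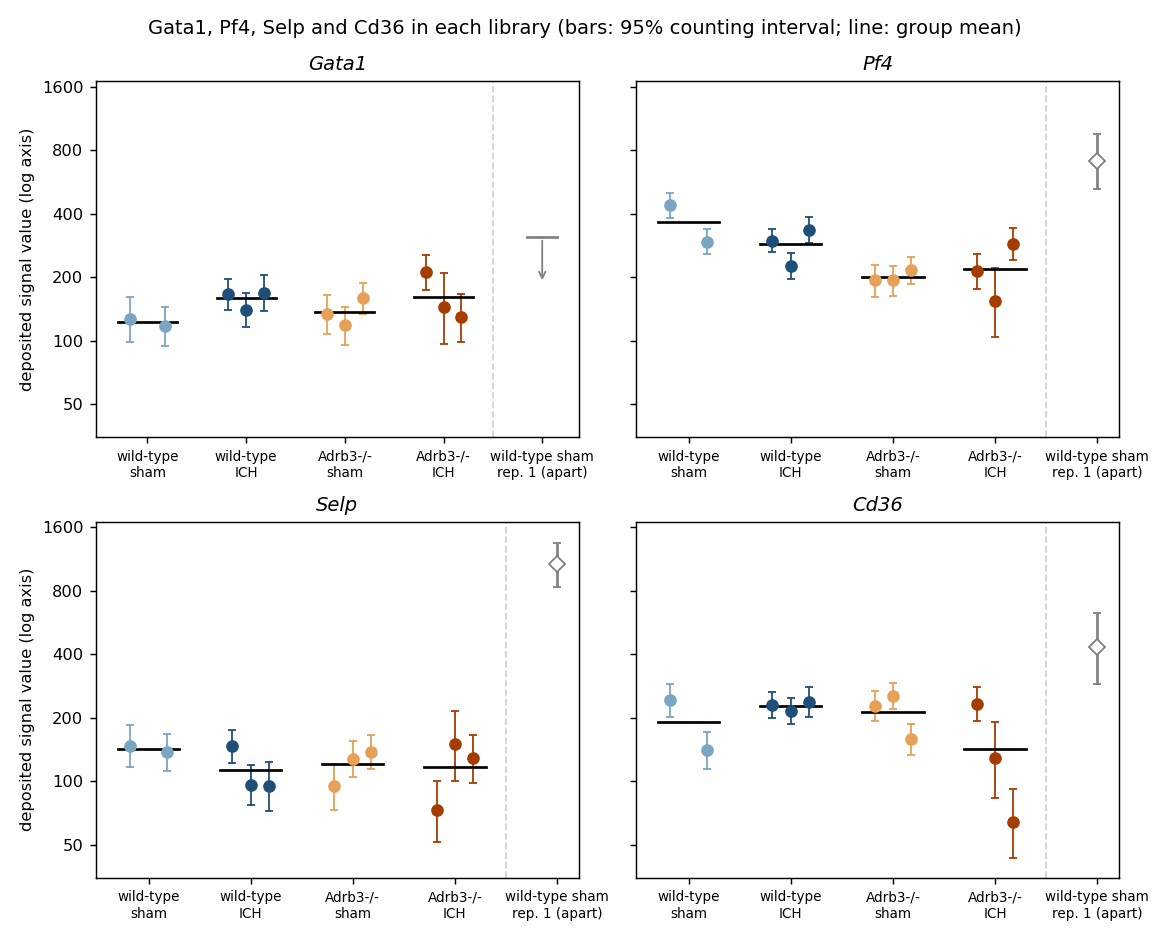
Deposited signal of Gata1, Pf4, Selp and Cd36 in each library (log axis), by group, with the 95% Poisson interval of its counts and the group mean as a line. Wild-type sham replicate 1 is set apart, with Gata1 as an upper limit. For Pf4, 5 of 6 Adrb3-/- points lie below the lowest wild-type point of the 11 libraries, a count not taken for the other tested genes. For Cd36 the Adrb3-/- ICH points spread from 64.5 to 234.

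Selp, the granule membrane receptor, was nearly level across the groups. Its values were 148 and 138 in wild-type sham (78 and 101 counts) and 147, 96.8 and 95.6 in wild-type ICH (121, 84 and 59 counts). They were 95.1, 128 and 138 in Adrb3-/- sham (64, 101 and 120 counts), and 72.9, 150 and 129 in Adrb3-/- ICH (38, 29 and 60 counts). All 4 groups overlapped. The lowest value, in Adrb3-/- ICH replicate 1, came from 38 counts and lay below that library's background of 64.4 counts, so Selp was not detectable there above the negative controls.

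Group means of Selp were 143 ± 7.07 (SD, n = 2) in wild-type sham, 121 ± 22.7 (n = 3) in Adrb3-/- sham, 117 ± 39.7 (n = 3) in Adrb3-/- ICH and 113 ± 29.5 (n = 3) in wild-type ICH. The libraries of neighbours in this order overlapped. ICH against sham gave -0.36 in wild type (SE 0.35, 95% interval -1.14 to 0.41, adjusted p = 0.9999 by limma) and -0.09 in Adrb3-/- (SE 0.31, adjusted p = 0.946). Adrb3-/- against wild type gave -0.26 after sham (SE 0.35, adjusted p = 0.992) and 0.02 after ICH (SE 0.31, interval -0.68 to 0.71, adjusted p = 0.982). The sign of the ICH value in Adrb3-/- turned to 0.22 without replicate 1 of Adrb3-/- ICH, the library in which Selp was under the background. The partners that P-selectin binds or works beside on leukocytes were all measured, 8 of 8, and 0 of 8 passed in any comparison. Selplg, the main P-selectin ligand of leukocytes, was 1802 in Adrb3-/- ICH replicate 1 and 622 to 966 in the other 10 libraries. It differed by 0.44 between genotypes after ICH (SE 0.33, adjusted p = 0.614). Sele, the endothelial E-selectin, stood at -0.84 for ICH in Adrb3-/- (SE 0.41, adjusted p = 0.461). Summed values of 7 endothelial markers were 635 to 778 in Adrb3-/- ICH and 1339 to 2132 in Adrb3-/- sham, where Selp overlapped. The median of the 7 was -0.28 against -0.16 for all tested genes. The endothelial genes Sele, Cdh5 and Tek were each under 20 counts in 1 of the 11 libraries. Of these 7 markers Vcam1 passed for ICH in Adrb3-/-, lower (difference -2.61, adjusted p = 0.0395 by limma). The endothelial sums were not taken without Vcam1, so its part in their difference is not known.

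Cd36, the scavenger receptor, varied most of the 4 genes, and its low values were in Adrb3-/- ICH. Wild-type sham libraries held 243 and 141 (128 and 103 counts) and wild-type ICH libraries 231, 217 and 238 (190, 188 and 147 counts). Adrb3-/- sham libraries held 229, 255 and 159 (154, 201 and 138 counts). Adrb3-/- ICH libraries held 234, 129 and 64.5 (122, 25 and 30 counts). Replicates 2 and 3 of Adrb3-/- ICH were the lowest of the 11 libraries, while replicate 1 lay among the other groups, so every group overlapped with it. The lowest value had a 95% counting interval of 43.5 to 92.1, and the next had one of 83.5 to 191, which reaches the lowest values of wild-type sham and Adrb3-/- sham.

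Group means of Cd36 were 229 ± 11.1 (SD, n = 3) in wild-type ICH, 214 ± 49.7 (n = 3) in Adrb3-/- sham, 192 ± 72.2 (n = 2) in wild-type sham and 143 ± 85.6 (n = 3) in Adrb3-/- ICH. The libraries of neighbours in this order overlapped. The observed coefficient of variation in Adrb3-/- ICH was 60.0% where counting error gives 14.3%, and in wild-type ICH it was 4.85% against 7.65%. ICH stood 0.75 below sham in Adrb3-/- (difference -0.75, SE 0.42, 95% interval -1.69 to 0.20, adjusted p = 0.537 by limma) and 0.30 above it in wild type (SE 0.47, adjusted p = 0.9999). Adrb3-/- against wild type gave -0.86 after ICH (SE 0.42, interval -1.81 to 0.08, adjusted p = 0.436) and 0.18 after sham (SE 0.47, adjusted p = 0.992). The interaction was -1.05 (SE 0.64, interval -2.46 to 0.36, adjusted p = 0.888).

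Single libraries set these Cd36 values. For ICH in Adrb3-/- the difference was -0.27 without Adrb3-/- ICH replicate 3 and -1.19 without replicate 1. Between genotypes after ICH it was -0.39 and -1.31, and the interaction was -0.58 and -1.50. With both weak libraries left out, replicate 3 stood alone for the group and was assumed to vary like the others. The 3 values were then -1.69 (adjusted p = 0.0646), -1.81 (adjusted p = 0.102) and -1.99 (adjusted p = 0.125).

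Other scavenger receptor and lipid uptake genes were set beside Cd36 in the same comparison, and 3 of them fell. Of 16 such genes on the list 11 were measured and kept. For ICH against sham in Adrb3-/-, 10 of 11 had a negative difference (452 of all 674) and 3 passed, all lower, with a median of -1.42 where all tested genes had -0.16. Mrc1, the macrophage mannose receptor, differed by -2.54 (SE 0.37, adjusted p = 0.0227). Apoe, the lipoprotein ligand, differed by -1.74 (SE 0.27, adjusted p = 0.0227), and Cd163, the haemoglobin scavenger receptor, by -2.14 (SE 0.43, adjusted p = 0.0483). All 7 calls of this comparison were lost with array weights, with the replicate number as a block, with only the groups compared in the fit, and with 12 libraries. They were also lost without Adrb3-/- sham replicate 2, without replicate 3, or without any 1 of the wild-type ICH libraries. In wild type 0 of 11 passed and the median was -0.07. In the same comparison all 10 neutrophil markers had a positive difference, with a median of 0.78 and 0 of 10 past the threshold, and their summed value was lowest in Adrb3-/- sham replicate 3. The part of the makeup of the sorts in these differences was not tested. Cd36 at -0.75 was in the direction of that list but nearer to 0 than its median.

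Monocytes and macrophages also carry Cd36, and their markers were low in some of the same libraries. Of 17 such markers 14 were measured and 13 kept. In Adrb3-/-, 12 of the 13 had a negative difference for ICH (452 of all 674) and 2 passed, Mertk (adjusted p = 0.0395) and Adgre1 (adjusted p = 0.0483), with a list median of -1.04. Their summed values were 4135, 2709 and 1439 in Adrb3-/- ICH replicates 1, 2 and 3, which is also the order of Cd36 in those libraries. In Adrb3-/- sham the order was reversed, with sums of 5901, 5665 and 9799 where Cd36 was 229, 255 and 159. The sums were 2782 to 5067 in wild-type sham and 3762 to 4167 in wild-type ICH. After sham, Adrb3-/- sums were above wild-type sums while Cd36 overlapped (214 ± 49.7 and 192 ± 72.2). The defining markers Adgre1, Csf1r, Mrc1, Cd163 and C1qa had 20 or more counts in all 11 libraries. The part of these cells in the Cd36 values was not tested.

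**Figure D4:**
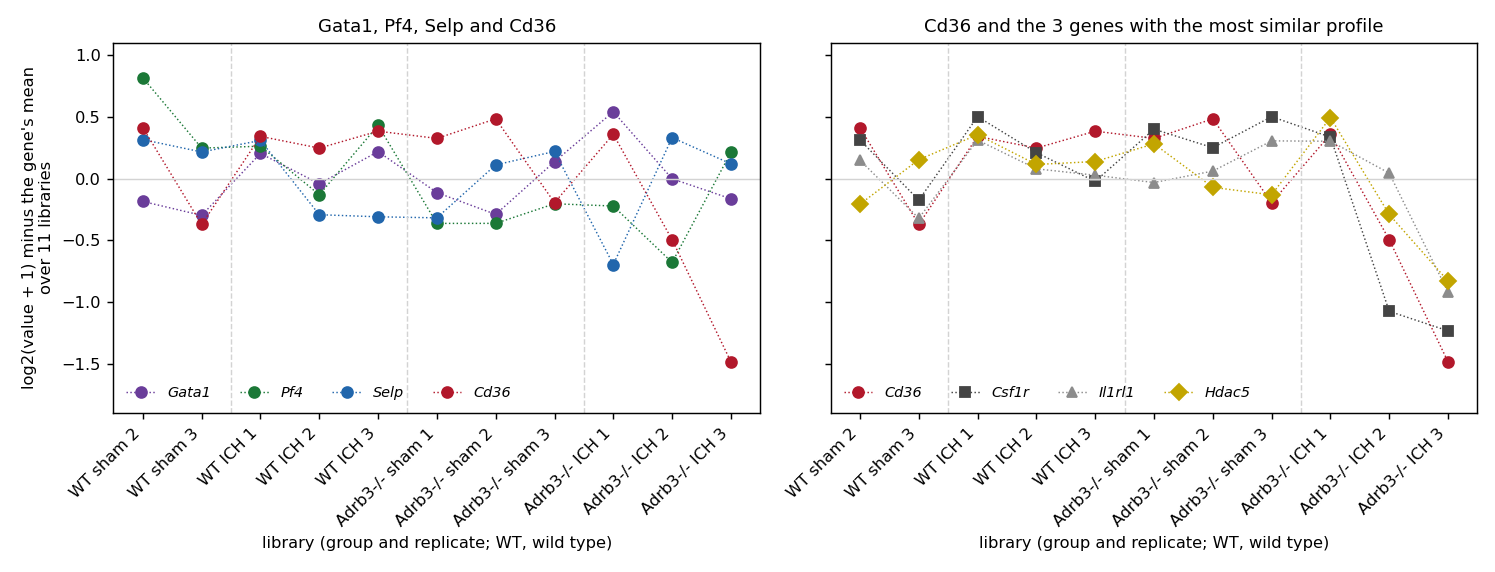
Each gene's log2(value + 1) in 11 libraries, centred on its own mean (dotted lines only join the points of 1 gene, and dashed lines part the groups). The left panel holds Gata1, Pf4, Selp and Cd36, which do not follow each other. The right panel holds Cd36 with the genes of nearest profile, Csf1r, Il1rl1 and Hdac5, all low in Adrb3-/- ICH replicate 3.

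The 4 genes did not share a profile. Likeness was taken as the root mean square difference of centred log2(value + 1) over the 11 libraries, among 490 other genes with 20 or more counts in all of them, as a description without a test. Gata1 and Pf4 differed by 0.50 on this measure, which placed Pf4 as neighbour 293 of 490 of Gata1 and Gata1 as neighbour 178 of Pf4. Selp was neighbour 138 of Pf4 and Cd36 neighbour 391. Pf4 and Selp were the closest pair of the 4, at 0.48, and Selp and Cd36 the farthest, at 0.75.

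The nearest profiles came from genes outside the lineage, of which few genes could be compared. Clec1b, P2rx1, Ccl5 and Cd40lg, each under 20 counts in 1 Adrb3-/- ICH library, could not enter. For Gata1 they were Prdx3 (0.16), a mitochondrial peroxiredoxin, Irf3 (0.19), an interferon regulatory factor, and Map2k4 (0.19), a stress kinase, where the median gene was at 0.46. For Pf4 they were Tuba1a (0.30), an alpha tubulin, Ttk (0.30), a spindle checkpoint kinase, and Nmb (0.31), neuromedin B, with a median of 0.54. For Selp they were Ndufa7 (0.16), a subunit of respiratory complex I, Akap13 (0.17), a kinase anchor, and Runx2 (0.17), a bone transcription factor, with a median of 0.42. For Cd36 they were Csf1r (0.33), the macrophage colony-stimulating factor receptor, Il1rl1 (0.36), the interleukin-33 receptor, and Hdac5 (0.37), a histone deacetylase, with a median of 0.67. A gene that did not vary at all would lie at 0.24 from Gata1, 0.41 from Pf4, 0.33 from Selp and 0.57 from Cd36. Those distances are also below the medians, so a small difference can come in part from a flat profile. Csf1r was 372, 139 and 125 in Adrb3-/- ICH replicates 1, 2 and 3 and 261 to 418 in the other 8 libraries. It thus had its 2 lowest values in the same libraries as Cd36, for its likeness to which it was picked.

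The spread within groups also ordered the 4 genes. The within-group SD on the log2 scale was 0.24 for Gata1, 0.33 for Pf4, 0.38 for Selp and 0.57 for Cd36, where the median of the 674 tested genes was 0.46. Gata1 was at percentile 16.9 of them and Cd36 at percentile 64.7.

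The rest of the lineage was measured thinly, and none of its genes passed in any comparison. Of 28 surface receptor genes of megakaryocytes and platelets 5 were measured, and 0 of 5 passed. Clec1b, the platelet podoplanin receptor CLEC-2, had the lowest p among them. Its values were 156 and 86.1 in wild-type sham, 91.3, 58.8 and 104 in wild-type ICH, and 98.0, 105 and 110 in Adrb3-/- sham. In Adrb3-/- ICH they were 55.6 and 51.6 in replicates 1 and 3, and replicate 2 had under 20 counts, which means under 103 there. Taken at the listed 20, Clec1b differed by -1.41 for ICH in Adrb3-/- (SE 0.40, adjusted p = 0.180 by limma) and by -1.07 between genotypes after ICH (SE 0.40, adjusted p = 0.400). The listed 20 enters both values. The other 4, Itgb1, P2rx1, Cd47 and Selplg, lay between -0.66 and 0.44 in the 4 comparisons of 2 groups.

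Of 25 granule content and coagulation genes 11 were measured and 10 kept, and 0 of 10 passed. Beside Pf4, this group held the growth factors Pdgfa, Pdgfb, Vegfa, Tgfb1 and Angpt1, the chemokine Ccl5, the matrix protein Fn1 and the fibrinolysis gene Plau. Between genotypes after sham, where Pf4 was at -0.84, 7 of the 10 were negative, as were 418 of all 674 tested genes, and the median was -0.24, against -0.10 for all tested genes. The 3 with the smallest p were Vegfa at -0.66 (SE 0.46), Angpt1 at 1.0002 (SE 0.82) and Cd40lg at 0.50 (SE 0.43), each at an adjusted p of 0.992. In the average over both surgeries 8 of the 10 were negative, as were 450 of all 674, with a median of -0.27 against -0.14. Cd40lg, a ligand that platelets and T cells carry, differed by -1.22 for ICH in Adrb3-/- (SE 0.38, adjusted p = 0.248) and was under 20 counts in 1 Adrb3-/- ICH library.

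Of 16 transcription factors of the lineage, 3 were measured beside Gata1, and 0 of 3 passed. Gata2, which precedes Gata1 in early progenitors, was 459 ± 73.5 (SD, n = 3) in Adrb3-/- sham and 288 ± 215 (n = 2) in wild-type sham, a log2 difference of 0.89 (SE 0.84, adjusted p = 0.992). Ets1 lay between -0.39 and 0.09.

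Of 25 genes of platelet signalling 7 were measured and 6 kept, and 0 of 6 passed. Pik3cg, the phosphoinositide 3-kinase used downstream of platelet G-protein-coupled receptors, was 255 ± 7.55 (SD, n = 3) in wild-type ICH and 398 ± 66.4 (n = 3) in Adrb3-/- ICH. The difference was 0.63 (SE 0.23, adjusted p = 0.400 by limma). Ptgs1, the cyclooxygenase of thromboxane synthesis, lay between -0.34 and -0.08. Syk, Btk, Fyn and Vav1, the kinases and exchange factor of receptor signalling, lay between -0.36 and 0.41. No erythroid marker on a list of 14 was measured, so that the red cell side of Gata1 was not analysed here.

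**Figure D5:**
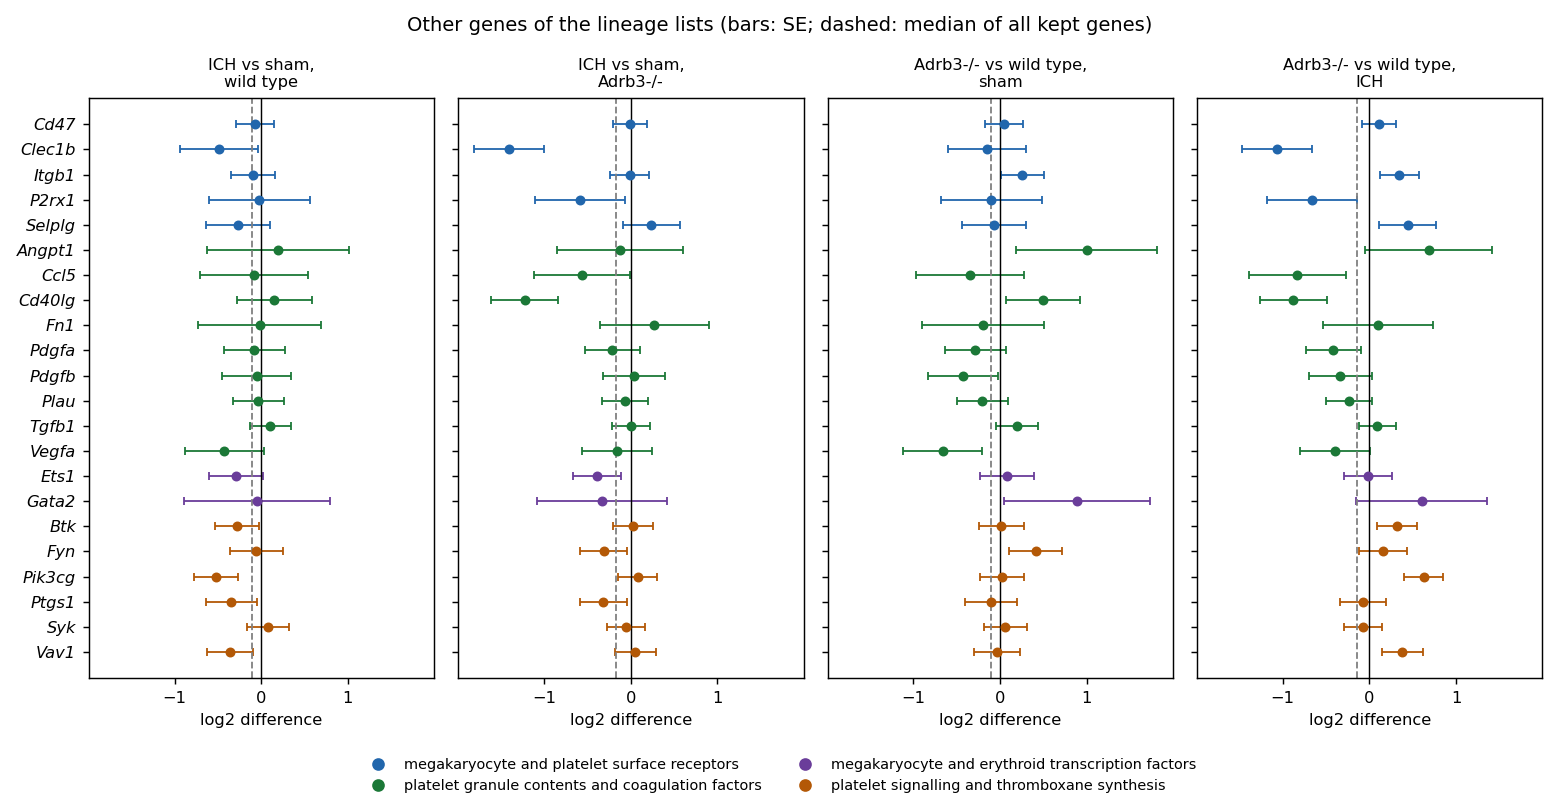
Log2 differences with SE of other lineage genes that passed the filter, in the 4 comparisons of 2 groups, coloured by list. The dashed line is the median of all 674 tested genes. Clec1b and Cd40lg lie lowest for ICH in Adrb3-/-, each with 1 library under 20 counts, and no gene shown passed the adjusted threshold.

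Wild-type sham replicate 1 would change the wild-type values if it were used. There Gata1 was under 20 counts, which means under 310, and Cd36 had 28 counts, below its background of 44.6. Pf4 had 46 counts (value 713) and Selp 69 (value 1070). With all 12 libraries and 593 genes kept, 0 genes passed in any comparison. Between genotypes after sham, Pf4 was then at -1.17 (SE 0.40, adjusted p = 0.438 by limma), Selp at -1.23 (SE 0.68), Cd36 at -0.22 (SE 0.52) and Gata1 at 1.004 (SE 0.60), all moved by this 1 library. For ICH against sham in wild type, Gata1 was at 1.22, Selp at -1.33, Pf4 at -0.67 and Cd36 at -0.11. The direction of Cd36 turned in both comparisons. The background of that library was itself worth a value of 692, above the Pf4 value of each other library.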

How the data were processed

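Total RNA of sorted cells was measured in 12 libraries, per the labels' protocols. The sources used here name no instrument, panel or scaling. The authors deposited signal values as 1 table of 754 genes, with 8 negative and 6 positive control probes. Judged by the values themselves, each signal is a whole count multiplied by 1 factor per library (whole within 0.00448 up to 1000 counts), genes under 20 counts are listed at an unscaled 20, and control probes are unscaled counts. Since values at 20 cannot be turned back, no count model was used. No 2 libraries of a group came close to duplicates (chi-square over degrees of freedom of at least 7.34). Molecules behind a value set its precision, so 95% Poisson intervals are given, which cover counting error only.

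Genes whose mean over 11 libraries exceeded the scaled negative-control background (52.2) were kept, 674 of 754. A linear model with 4 group means (wild-type sham with 2 libraries) was fitted by lmFit and eBayes of limma 3.58.1 in R 4.3.3 to the log2 of the value plus 1, with 7 residual degrees of freedom. All tests are two-sided and adjusted by Benjamini-Hochberg. The added 1 slightly shrinks the differences of low genes. The fit was tested on simulated data. The 4 genes are named in every comparison. For each, the 3 genes of nearest profile are named, and from each list up to 3 genes with the smallest p per comparison, with the lineage lists also summarised by counts. A few genes of these lists enter the counts and are not reported here by name. Genes and lists were chosen with earlier results of these data known. The sources do not say outright that each library is a separate mouse, so p-values measure the spread between these libraries. Same-numbered libraries of different groups were not paired by the labels. Alternatives were other filters, pseudocounts, scalings and fits, and leaving out each library. The subtraction of negative controls, the fit without both weak Adrb3-/- ICH libraries and the average over surgeries were added after the data were seen. Gene symbols, all 4 of them, were matched in RefSeq's gene table for names only.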

Additional observations from a re-analysis of the deposited data

Results flagged for a closer look

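Pf4 and Selp gave signal in wild-type sham replicate 1, the library that the comparisons leave out. Pf4 had 46 counts and Selp 69 counts there, above the highest negative control of that library (42 counts) and above its background of 44.6 counts, Pf4 by little. The strongest positive control of that library had 79 counts. Whether these counts measure the transcripts was not tested.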

How the results depend on the processing

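Under the 24 alternatives tried, no difference of Gata1, Pf4, Selp or Cd36 passed the threshold. Of 568 such values 537 kept their direction and 31 turned, none of them called in either setting. The smallest adjusted p was 0.0646, for Cd36 after ICH in Adrb3-/- with both weak Adrb3-/- ICH libraries left out. The turned values were small. With 12 libraries, Cd36 was at -0.11 for ICH in wild type and -0.22 between genotypes after sham, where 1 failed library was added. For ICH in Adrb3-/-, Selp was at 0.035 with median centring and 0.080 with quantile normalization, Pf4 at -0.11 with negative controls subtracted, and Gata1 at -0.075 and Selp at 0.12 without the weak libraries. Between genotypes after ICH, Gata1 was at 0.0011 with a pseudocount of 20, 0.070 with median centring and 0.035 with quantile normalization, Selp at -0.30 with negative controls subtracted, and Pf4 at 0.026 without the weak libraries. The interaction of Selp was -0.060 with negative controls subtracted. In the average over surgeries, Selp was at 0.024 with quantile normalization, and Gata1 at -0.0061 with array weights and -0.069 without the weak libraries. The cause of these turns was not tested.

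Leaving out 1 library at a time gave -0.088 to 0.70 for Cd36 with ICH in wild type. With ICH in Adrb3-/- it gave -0.29 to 0.22 for Selp and -0.14 to 0.31 for Pf4. Between genotypes it gave -0.21 to 0.58 for Cd36 after sham, and -0.21 to 0.14 for Gata1 and -0.19 to 0.32 for Selp after ICH. In the average over surgeries it gave -0.029 to 0.15 for Gata1 and -0.23 to 0.031 for Selp.

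Counts of called genes moved more. For ICH in Adrb3-/- the 7 genes became 13 with a pseudocount of 20, 12 with a trended prior, 14 without the weak libraries, 4 with the 12-library filter, 2 with no filter and 1 with median centring. They became 0 with 12 libraries, with array weights, with only the groups compared and with the replicate number as a block, and 0 to 50 with 1 library left out, 50 without Adrb3-/- ICH replicate 3. Between genotypes after ICH the count was 2 with no filter and 0 to 49 with 1 library left out, 49 without that same library, and in the average it was 2 and 0 to 3. For ICH in wild type, for the genotypes after sham and for the interaction it was 0 to 1 with 1 library left out. Deviations of same-numbered libraries from their group means correlated at -0.42 to 0.15. Differently numbered libraries were not set beside them, so this cannot decide whether the numbers pair the libraries. With the number as a block no difference of the 4 genes passed, Pf4 after sham being at -0.85 (adjusted p = 0.752 by limma).

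Counts limit the low values. In Adrb3-/- ICH replicate 2 all 4 genes rest on 25 to 30 counts, Selp was under the background in replicate 1, and wild-type sham rests on 2 libraries. A missed threshold does not show that the groups are alike.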
